A study of Caenorhabditis elegans with 8 samples.

Results

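The comparison described here set *mut-16(pk710)* mutant L4 larvae cultured at 25ºC against wild-type L4 larvae cultured at 25ºC, and it used 4 of the 8 mRNA-seq libraries of the series. Each side had 2 biological replicates of whole hermaphrodite cultures. The wild type was the N2 strain, and the mutant was strain NL1810, *mut-16(pk710) I*, in the N2 background. Animals of both genotypes were synchronized as L1 larvae, fed on enriched peptone plates and harvested as L4s about 39 h after plating, and the 20ºC libraries named below came from animals harvested after about 56 h. Each library was polyadenylated mRNA from a pool of animals, given as 8000 in the study's methods and as both 8000 and 10000 in the sample records. The mutant allele is present in every cell, so nothing in these libraries separates germline from somatic loss of the gene.

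MUT-16 is the scaffold protein of the mutator complex, which sits in foci beside the P granules of *C. elegans* germ cells and amplifies 22G-RNAs, the short antisense RNAs that bind worm-specific Argonaute proteins (WAGOs) and silence transposons, pseudogenes and many other transcripts. A separate small RNA pathway, built on 26G-RNAs and the Argonautes ALG-3 and ALG-4, acts on spermatogenesis genes. L4 is the larval stage in which hermaphrodites make their sperm, before the germline switches to oocytes, and it ends in the last moult, when the adult cuticle is laid down. The question was which classes of genes were lost and gained in the mutant under heat stress.

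Totals in the 4 libraries lay between 10997327 and 13227929 expected counts, ribosomal RNA took between 10.8% and 14.3% of them, and values below are TMM-scaled CPM (read counts relative to the library total) unless another unit is named. Of 13972 genes that passed the filter on low counts, 441 were up-regulated in *mut-16* mutants (3.16% of genes tested) and 1209 were down-regulated (8.65%), at a log2(fold change) above 1 or below −1 and an adjusted p of at most 0.05 in edgeR's quasi-likelihood fit, adjusted by the Benjamini-Hochberg method. For all 1650 of them (11.8%) the 2 mutant libraries lay on the same side of the 2 wild-type libraries, a separation also seen upwards in 33.4% and downwards in 33.9% of all genes tested. The median size was 2.94-fold for up-regulated genes and 3.23-fold for down-regulated genes. Most were weakly expressed, with a median of 4.19 CPM among the up-regulated and 3.52 CPM among the down-regulated genes against 11.4 CPM over all genes, and only 9 up-regulated and 26 down-regulated genes averaged 100 CPM or more. Without mutant replicate 2 the counts fell to 294 and 696. Scaled by total counts, the split was 659 genes up-regulated against 1011 down-regulated, and the median over all genes moved on the log2 scale from 0.00 to 0.18, so small changes are best read relative to that shift.

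**Figure D1:**
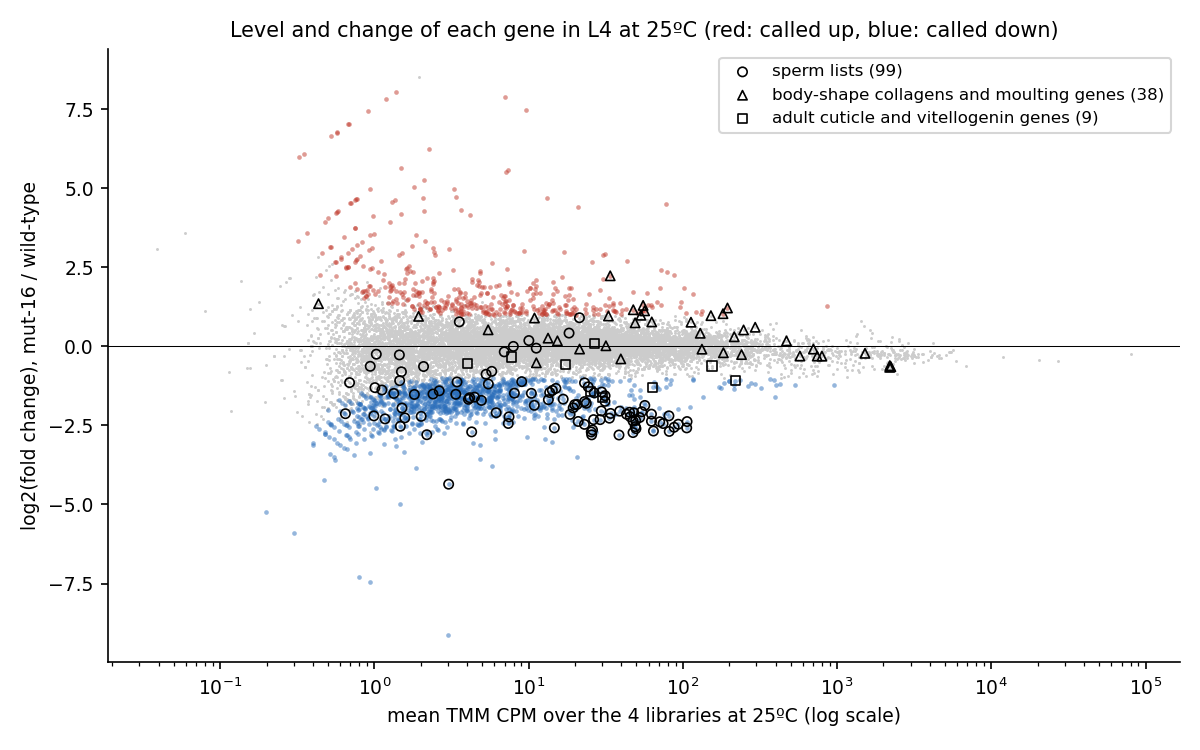
Mean level (x axis, TMM CPM over the 4 libraries at 25ºC, log scale) against log2(fold change) of *mut-16* over wild-type (y axis) for the 13972 genes tested, with up-regulated genes in red, down-regulated genes in blue and 3 groups of listed genes outlined. Most of the 99 sperm genes tested form a band below 0, while the body-shape collagens and moulting genes lie on both sides of 0. The adult cuticle and vitellogenin genes lie mostly below 0.

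The *mut-16* transcript (B0379.3, 14 exons) stood at 24.3 and 22.6 CPM in wild-type and at 7.2 and 7.82 CPM in the mutant at 25ºC. The groups did not overlap, and the transcript fell by 1.64 on the log2 scale (SE 0.18, adjusted p = 3.4e-05). None of the other 10 mutator complex genes tested was called, among them the polymerase gene *rrf-1*, the nucleotidyltransferase gene *mut-2*, and *mut-7* and *rde-2*, and the median of the list was 0.05.

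The clearest loss was of the sperm programme. All 30 major sperm protein genes tested (of 31) were down-regulated, with a median log2(fold change) of −2.50, a range from −4.36 to −1.47, and a median over all genes of 0.00. Major sperm proteins make up the cytoskeleton that drives the crawling of nematode sperm and are released as the signal for oocyte maturation. Their summed abundance was 1890 and 2384 RPM (reads relative to the file total, with no TMM scaling) in the wild-type libraries and 442 and 468 RPM in the mutant libraries, so that the mutant mean was 21.3% of the wild-type mean. The 2 genotypes were far apart, although the wild-type libraries differed more from each other than the mutant libraries did. An exact two-sided permutation test of 2 against 2 libraries cannot give a p below 0.33, which is the value found. These genes are near-identical copies, 12 on chromosome II and 18 on chromosome IV, and all 30 had counts that were not whole, so reads were divided among copies and the family sum is firmer than the value of any member. The bulk libraries cannot tell fewer sperm-forming cells from less RNA per cell.

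Among the members, *msp-36* (a single exon on chromosome IV, 10095433 to 10095816 in WBcel235) was at 156 and 201 CPM in wild-type and 32.0 and 36.8 CPM in the mutant. It fell by 2.38 (SE 0.18, adjusted p = 2.5e-06). *msp-31*, on chromosome II from 4916179 to 4916562, went from 136 and 165 CPM to 24.9 and 26.1 CPM. The largest change of the family was in *msp-65*, a weakly expressed copy at 5.94 and 5.66 CPM in wild-type and 0.16 and 0.37 CPM in the mutant (log2(fold change) −4.36, SE 0.40, and −5.06 without mutant replicate 2). *msp-57*, *msp-10*, *msp-59* and *msp-58* had log2(fold change) values of −2.80, −2.80, −2.73 and −2.71 and were among the 15 down-regulated genes with the largest changes averaging 4 CPM or more. In each of these genes the lower wild-type library was more than 4 times the higher mutant library.

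The small sperm families followed the same direction, with 29 of 31 genes tested down-regulated and a median of −1.95. This list holds the *ssp*, *ssq*, *sss*, *msd*, *nspd* and *smz* genes, most of them short paralogs expressed in sperm, and 23 had counts that were not whole. By class, 10 of 11 *ssp* genes, which encode proteins with a major sperm protein domain, and all 9 *nspd* genes, a nematode-specific peptide family, were down-regulated. *ssp-33* was at 7.43 and 7.42 CPM in wild-type and 1.15 and 1.12 CPM in the mutant (log2(fold change) −2.70, SE 0.43, adjusted p = 6.7e-04). Both genotypes were tight for this gene and did not overlap. The list summed to 903 and 1198 RPM in wild-type and 288 and 306 RPM in the mutant, 28.3% of the wild-type mean.

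Of the *spe* and *fer* genes, named for mutants with defective spermatogenesis or fertilization, 16 of 26 tested were down-regulated and none was up-regulated, with a median of −1.34. *spe-11*, whose product is carried by sperm into the egg and is needed for embryonic development, was at 7.96 and 12 CPM in wild-type and 2.37 and 2.31 CPM in the mutant, a fall of 2.10 (SE 0.26, adjusted p = 1.1e-04). *spe-18* went from 30.8 and 40.3 CPM to 10.8 and 10.4 CPM (log2(fold change) −1.75). *spe-15*, the gene of the myosin VI motor that segregates organelles in budding spermatids, had a log2(fold change) of −1.28. *fer-1*, a ferlin needed for fusion of the membranous organelles when sperm are activated, ran from 13.4 and 26.8 CPM to 6.87 and 7.82 CPM, and its adjusted p of 0.003 became 0.062 without wild-type replicate 2. *spe-9*, *spe-49* and *spe-43* changed by −2.29, −2.26 and −2.13 but stood below 3 CPM in every library. Without wild-type replicate 2 none of these genes was called (adjusted p = 0.14, 0.078 and 0.1), *spe-9* was also lost without mutant replicate 2 (0.19), *spe-49* without mutant replicate 1 (0.11), and *spe-43* with any single library left out. *spe-44*, a transcription factor gene that starts the sperm programme, changed less, from 5.41 and 8.31 CPM to 3.85 and 3.65 CPM (log2(fold change) −0.88, adjusted p = 0.033, and between 0.14 and 0.31 without wild-type replicate 2 or either mutant replicate). The number of *spe* and *fer* genes called was 6 without wild-type replicate 2, 10 without either mutant replicate and 18 without wild-type replicate 1. Summed over the list, abundance was 165 and 252 RPM in wild-type and 114 and 122 RPM in the mutant.

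A further list, of other genes with known roles in sperm, had 6 of 12 members tested down-regulated and none up-regulated. The sperm phosphatase genes *gsp-3* and *gsp-4* went from 31.7 and 41.8 CPM to 10.9 and 10.3 CPM, and from 24.9 and 39.5 CPM to 7.53 and 10.5 CPM. Their log2(fold change) values were −1.80 (SE 0.20) and −1.84 (SE 0.23), and because the pair are close paralogs their reads were split between them. *htas-1*, a sperm histone H2A variant, fell by 1.62 (SE 0.27, adjusted p = 9.2e-04), and *comp-1*, which acts in sperm competition, fell by 1.51 (SE 0.29, adjusted p = 0.0024). *peel-1*, the paternal toxin, stood at 3.08 and 3.53 CPM and then at 1.15 and 0.30 CPM, and its log2(fold change) of −2.21 was −1.52 without mutant replicate 2 (adjusted p = 0.071) and −3.40 without mutant replicate 1. Over the 106 genes of the 4 sperm lists, abundance was 3047 and 3964 RPM in wild-type and 918 and 971 RPM in the mutant, or 26.9% of the wild-type mean. The log2 ratio of these sums was −1.89, and it lay between −2.07 and −1.69 with a library left out in turn. The 81 down-regulated members were 6.70% of the 1209 down-regulated genes.

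**Figure D2:**
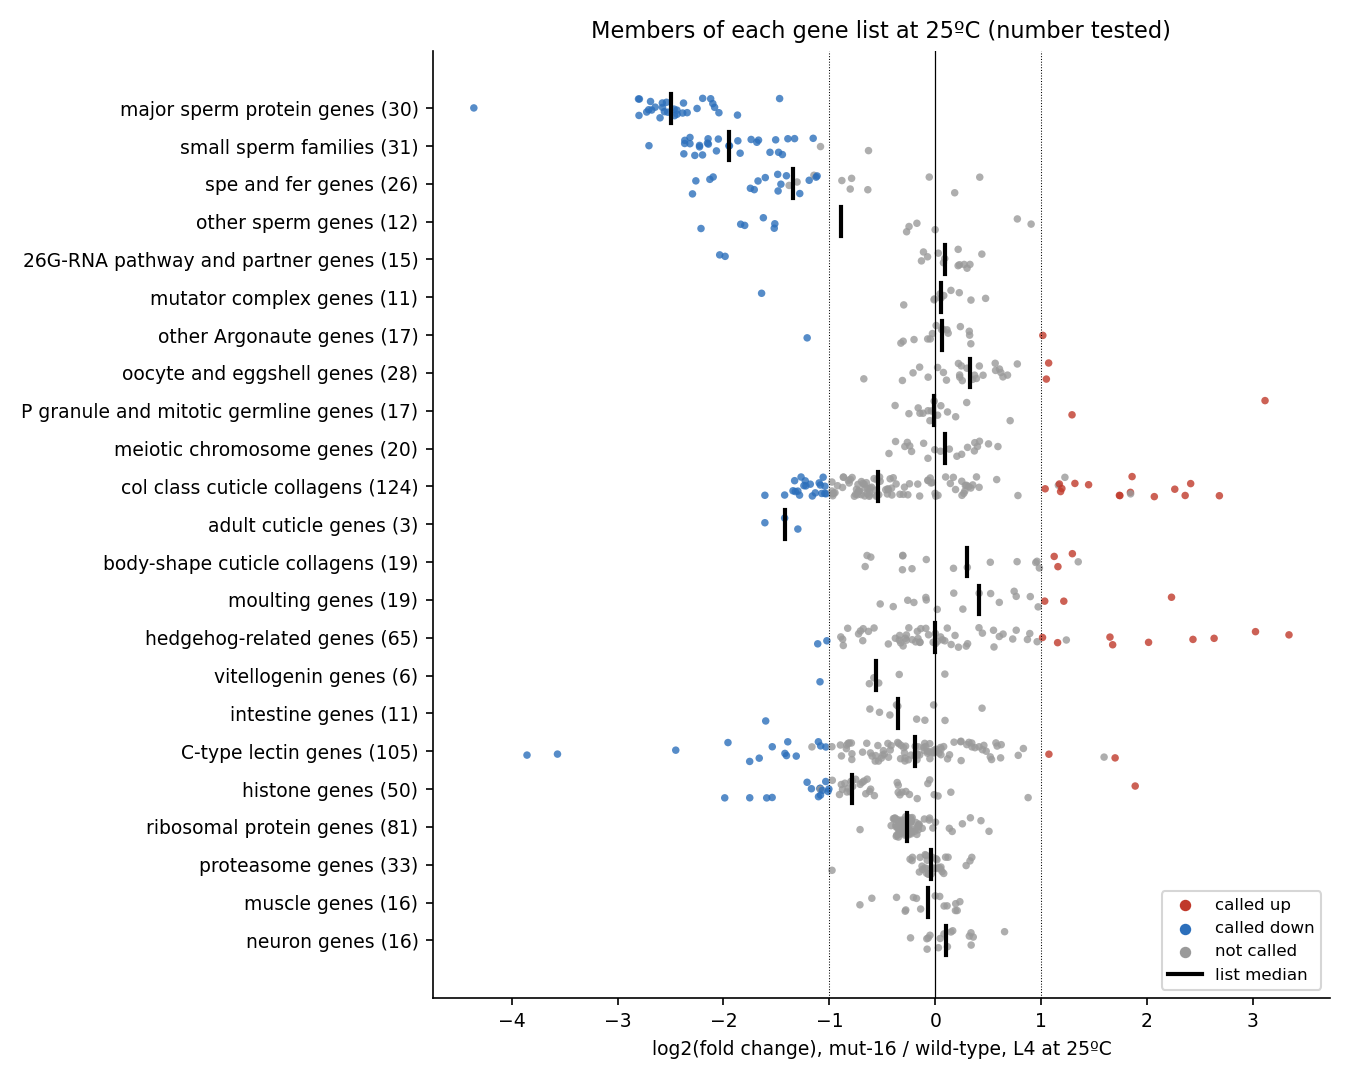
Log2(fold change) of *mut-16* over wild-type at 25ºC (x axis) for each tested member of 23 gene lists (rows, number tested in brackets), with up-regulated members in red, down-regulated members in blue, others in grey and the list median as a black bar. The major sperm protein genes lie as a group at a median of −2.50, whereas the ribosomal protein genes lie within a narrow range around −0.26 with no member called.

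Of 15 genes tested of the 26G-RNA pathway and its partners, 2 were down-regulated (13.3%, against 8.65% of all genes). They were the Argonaute genes of the pathway's spermatogenesis branch. *alg-3* (chromosome IV, 11704246 to 11708264, 12 exons) was at 17.3 and 31.1 CPM in wild-type and 5.97 and 5.88 CPM in the mutant, and fell by 2.04 (SE 0.24, adjusted p = 7.3e-05). *alg-4* (chromosome III, 9887209 to 9891424, 12 exons) was at 26.2 and 38.3 CPM and then at 7.28 and 9.01 CPM, and fell by 1.98 (SE 0.24, adjusted p = 7.8e-05). Wild-type replicate 1 was the lower of the wild-type libraries for both genes, and still lay above both mutant libraries. The other 13 genes were not called in either direction, from *eri-5* at −0.13 to *gtsf-1* at 0.44. At 20ºC the same 2 genes changed by −0.83 and −0.95, and the test of the difference between temperatures gave adjusted p = 0.067 for *alg-3* and 0.11 for *alg-4*.

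Of 17 other Argonaute genes tested, *vsra-1* was up-regulated, from 8.81 and 8.48 CPM to 18 and 17 CPM (log2(fold change) 1.02, SE 0.17, adjusted p = 0.0012). *wago-10* was down-regulated, from 7.11 and 16.7 CPM to 5.81 and 4.62 CPM, but its log2(fold change) of −1.21 became −0.45 (adjusted p = 0.39) without wild-type replicate 2. The remaining 15, among them *prg-1*, the Piwi gene, and *hrde-1*, the nuclear Argonaute of germline inheritance, were not called. Each direction thus held 5.88% of the list, against 3.16% up-regulated and 8.65% down-regulated over all genes.

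The genes with the largest gains were mostly near zero in wild-type. *ZC15.3* had 1 count in the wild-type libraries together and stood at 14.1 and 13.8 CPM in the mutant, a ratio of 263 with a 95% counting interval from 51.5 to 11435. *F07B7.1* had 2 counts in wild-type and stood at 17.1 and 21.2 CPM in the mutant, a ratio of 197 with an interval from 54.9 to 1651. Its neighbour on chromosome V, *F07B7.2*, went from 1.59 and 2.12 CPM to 40.7 and 39.8 CPM. These neighbours are paralogs with divided counts, and both were high in every mutant library and near zero in every wild-type library. *timm-17B.2* (chromosome IV, 8396648 to 8397954), named for the Tim17 subunit of the mitochondrial import channel, was the most abundant of the group, at 5.52 and 7.51 CPM in wild-type and 154 and 145 CPM in the mutant (log2(fold change) 4.51, SE 0.22, adjusted p = 1.7e-07). *C38D9.2*, *Y23H5A.8*, *F41G4.7* and *F40D4.13* had log2(fold change) values of 4.7, 5.59, 5.53 and 4.16. The value of *F41G4.7* rested on few wild-type counts, and it was 4.43 without wild-type replicate 2. Without wild-type replicate 1 the one wild-type library left was at 0 for *F41G4.7* and *ZC15.3*, so no fold is given, and *Y23H5A.8* was at 6.26.

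Most of these gains were present without heat. At 20ºC, *ZC15.3* was at 12.9 and 14.8 CPM in the mutant and *timm-17B.2* at 196 and 136 CPM, against 0.08 and 0.09 CPM and 3.06 and 2.40 CPM in wild-type. *rnh-1.3*, a ribonuclease H gene, went from 7.64 and 6.63 CPM to 53.5 and 53.0 CPM at 25ºC and from 0.99 and 0.98 CPM to 17.5 and 16.9 CPM at 20ºC. *F15D4.5* went from 13.4 and 9.81 CPM to 76.7 and 74.1 CPM at 25ºC and from 0.38 and 0.71 CPM to 36.5 and 36.7 CPM at 20ºC. In these 2 genes and in *timm-17B.2* the ratio was smaller at 25ºC while the mutant level was similar or higher, since the wild-type level was higher at 25ºC. The test of the difference between temperatures gave adjusted p = 0.043, 5.3e-04 and 0.033.

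A list of small RNA silencing targets had 7 members tested, of which 2 were up-regulated (28.6%, against 3.16% of all genes). Both had at most 5 counts in the wild-type libraries at 25ºC together, so they passed the filter through libraries of other groups. With at least 10 counts required in every library, 5 members were tested and 0 were up-regulated. The list was drawn up with results of these libraries known and is not independent evidence of a direction. In it, *bath-45* went from 0.32 and 0.18 CPM to 5.40 and 7.75 CPM (log2(fold change) 4.71, SE 0.44), and *fbxb-97* from 0 counts in both wild-type libraries to 3.03 and 2.53 CPM, at least 9.53-fold higher with a floor of 3 counts a library. *C44B11.6* moved in opposite directions at the 2 temperatures. It was at 29.0 and 21.6 CPM in wild-type and 13.3 and 12.5 CPM in mutants under heat, but at 6.2 and 7.81 CPM in wild-type and 23.1 and 20.2 CPM in the mutant at 20ºC (log2(fold change) −0.96 and 1.63, difference adjusted p = 4.8e-04).

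The female and early germline genes did not share the loss of the sperm genes. Of 28 oocyte and eggshell genes, 2 were up-regulated (7.14%, against 3.16% of all genes) and none was down-regulated. With no limit on the fold change 6 were higher at adjusted p 0.05 (7.68% of all genes tested were) and 1 was lower. *lin-41*, which encodes an RNA-binding regulator of oocyte growth, was at 11.9 and 11 CPM in wild-type and 22.5 and 25.6 CPM in the mutant (log2(fold change) 1.07, SE 0.21, adjusted p = 0.0025). *oma-2*, an oocyte maturation factor, was at 8.17 and 7.16 CPM and then at 16 and 15.6 CPM (log2(fold change) 1.05), and its adjusted p lay between 0.078 and 0.14 with any library left out. *egg-6* and *egg-5*, which act at the egg surface, and *mex-5*, a polarity factor, rose by 0.78, 0.68 and 0.57. With 1 library left out in turn, 0 or 1 gene was up-regulated, and the adjusted p lay between 0.078 and 0.15 for *egg-5* and between 0.091 and 0.2 for *mex-5*, and that of *egg-6* was 0.06 without wild-type replicate 1 and 0.063 without mutant replicate 2. The single gene that was lower was *perm-2*, an eggshell permeability gene, with a log2(fold change) of −0.67 (adjusted p = 0.04, and 0.36 without wild-type replicate 1, 0.23 and 0.18 without mutant replicates 1 and 2).

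Within 17 P granule and mitotic germline genes, the P granule regulators *meg-1* and *meg-3* were up-regulated, the latter with an adjusted p of 0.058 without wild-type replicate 1 and 0.15 without mutant replicate 2. *meg-1*, a gene of the maternal germ plasm, was at 0.64 and 0.35 CPM in wild-type and 3.93 and 4.62 CPM in the mutant (log2(fold change) 3.12, SE 0.42, adjusted p = 2.1e-04), while at 20ºC it stayed below 1 CPM in all 4 libraries. *glp-1*, the Notch receptor of germline stem cells, rose by 0.71 (adjusted p = 0.028, between 0.059 and 0.23 without wild-type replicate 1 or either mutant replicate). The 2 up-regulated genes were 11.8% of the list, against 3.16% of all genes. *meg-1* had 10 counts in the wild-type libraries at 25ºC together. With at least 10 counts required in every library, 16 genes of the list were tested and 1 was up-regulated. The median of the list was −0.01 (0.16 with total-count scaling), and none of 20 meiotic chromosome genes was called.

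A few moulting genes were up-regulated in the mutant. Of 19 moulting genes, 3 were up-regulated (15.8%, against 3.16% of all genes) and none was down-regulated. With no limit on the fold change 8 were higher at adjusted p 0.05, where 7.68% of all genes tested were, and none was lower. The remaining 11 passed in neither direction, and the median of the list was 0.41. *fbn-1*, a fibrillin-like protein of the apical matrix, was at 10.6 and 13.1 CPM in wild-type and 47.8 and 63.9 CPM in the mutant (log2(fold change) 2.23, SE 0.23, adjusted p = 2.1e-05). *noah-1*, an apical matrix component, went from 103.2 and 131 CPM to 238 and 307 CPM (log2(fold change) 1.21), and *noah-2* rose by 0.97 (adjusted p = 0.0017). *mlt-11*, a protease inhibitor needed for moulting, rose by 1.03, with an adjusted p of 0.056 without wild-type replicate 1 and 0.054 without mutant replicate 2. The count of 3 became 2 without wild-type replicate 1 or mutant replicate 2 and 5 without either of the others. The summed list was at 1224 and 1566 RPM in wild-type and 1995 and 2328 RPM in the mutant, 155% of the wild-type mean. Wild-type at 20ºC was above wild-type at 25ºC for both of the most changed genes, with *fbn-1* at 38.5 and 40.8 CPM and *noah-1* at 316 and 275 CPM.

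The body-shape collagens changed in both directions at adjusted p 0.05, with 7 of 19 higher, 3 lower and 9 passing in neither direction. *dpy-2*, *dpy-9* and *dpy-10*, furrow collagens made early in each cycle, were up-regulated, and *dpy-10* went from 27.2 and 36.8 CPM to 74.7 and 82.6 CPM (log2(fold change) 1.3, SE 0.19, adjusted p = 3.5e-04). *dpy-2* and *dpy-9* rose by 1.12 and 1.16. Below the fold limit, *dpy-4* and *dpy-13*, which encode collagens needed for normal body length, fell by 0.66 and 0.61 (adjusted p = 0.0057 and 0.0043, and between 0.052 and 0.091 without wild-type replicate 2 for *dpy-4* and without either mutant replicate for both). In all, 3 of 19 were up-regulated and none was down-regulated, while without wild-type replicate 1 there was 1 and without wild-type replicate 2 there were 6. The mucin-like gene *dpy-6*, which overlaps *F16F9.1*, rose from 3.29 and 4.24 CPM to 25.4 and 34.6 CPM.

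Some other secreted matrix genes were up-regulated as well. The lipocalin-related class *lpr*, whose members shape the apical matrix, had 5 of 7 genes up-regulated, and *lpr-3* went from 46 and 60.3 CPM to 127 and 155 CPM (log2(fold change) 1.4, SE 0.17, adjusted p = 9.0e-05). Of 22 cuticlin-like *cutl* genes 4 were up-regulated, and of 43 transthyretin-related *ttr* genes 6 were up-regulated and 2 down-regulated. Over all genes tested, 3.16% were up-regulated and 8.65% down-regulated. Hedgehog-related genes, a nematode-expanded family with roles in cuticle formation, had 9 of 65 up-regulated (13.8%, and 7 genes by DESeq2) and 2 down-regulated (3.08%). Of the 65, 33 lay above and 32 below 0, with a median of 0.00. The summed abundance of the list was 97.5% of the wild-type mean by file totals, where the groups overlapped. It was 86.3% with TMM-scaled totals, where they did not. *grd-10* was at 1.91 and 2.12 CPM in wild-type and 16.8 and 16.3 CPM in the mutant, *grd-13* was at 1.80 and 1.41 CPM and then at 9.33 and 10.6 CPM, and *wrt-10* was at 23.1 and 32.7 CPM and then at 85.1 and 93.9 CPM. Their log2(fold change) values were 3.03, 2.63 and 1.68. *grd-10* and *grd-13* lie close together on chromosome IV. Outside these classes, *F46F2.3*, a short gene with 2 exons on the X chromosome and no class symbol, was named for the size of its change. It rose from 7.53 and 7.07 CPM to 52.5 and 58.4 CPM.

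The *col* class, the main structural collagens of the cuticle, changed in both directions but more often downwards. Of 124 genes, 15 were up-regulated and 21 down-regulated, against 3.16% and 8.65% of all genes. With no limit on the fold change, 16 were higher and 65 lower at adjusted p 0.05, against 7.68% and 12.5% of all genes. The class median was −0.54, with 37 genes above 0 and 87 below. *col-98*, *col-103* and *col-42* were between 21.6 and 32.1 CPM in wild-type and between 118 and 147 CPM in the mutant, with log2(fold change) values of 2.41, 2.36 and 2.26, and *col-176* went from 6.26 and 7.51 CPM to 43.6 and 45.4 CPM. These copies share sequence, and 100 of the 124 genes had counts that were not whole. In the other direction, *col-181* went from 351 and 260 CPM to 116 and 125 CPM (log2(fold change) −1.34, SE 0.16, adjusted p = 7.8e-05). Scaled by total counts the class had 16 up-regulated and 11 down-regulated genes, without wild-type replicate 1 it had 10 and 6, and without mutant replicate 2 it had 10 and 16. Summed, the class lost abundance, from 50046 and 49066 RPM in wild-type to 38732 and 37472 RPM in the mutant.

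The 3 adult cuticle collagens of the list were all down-regulated, although only 1 was called when wild-type replicate 1 was left out and 1 by DESeq2. *col-19*, the usual marker of the adult cuticle, was at 114 and 67.4 CPM in wild-type and 34.0 and 39.6 CPM in the mutant (log2(fold change) −1.3, SE 0.21, adjusted p = 7.8e-04). *col-62* was at 58 and 33.3 CPM and then at 13.5 and 16.3 CPM, and *col-7* at 55.3 and 18.6 CPM and then at 10.6 and 16.8 CPM. Wild-type replicate 1 was the highest of the 4 libraries for all 3. Without it *col-19* changed by −0.88 (adjusted p = 0.0085), and DESeq2 gave adjusted p = 0.087 for *col-62*. Without that library *col-7* was no longer called (log2(fold change) −0.45, adjusted p = 0.55), nor was it without mutant replicate 1 (0.21) or 2 (0.057). At 20ºC the 3 summed to 31.7 and 24.4 RPM in wild-type and 6.56 and 7.09 RPM in the mutant. Of the 6 vitellogenin genes, which encode yolk proteins made by the adult intestine, *vit-2* alone was called, at 375 and 220 CPM in wild-type and 123 and 157 CPM in the mutant, and its adjusted p was 0.076 without wild-type replicate 1 and 0.074 without mutant replicate 1. Scaled by total counts, no vitellogenin gene was called. All animals were harvested by hours of culture, so the age reached within L4 and the genotype cannot be told apart.

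**Figure D3:**
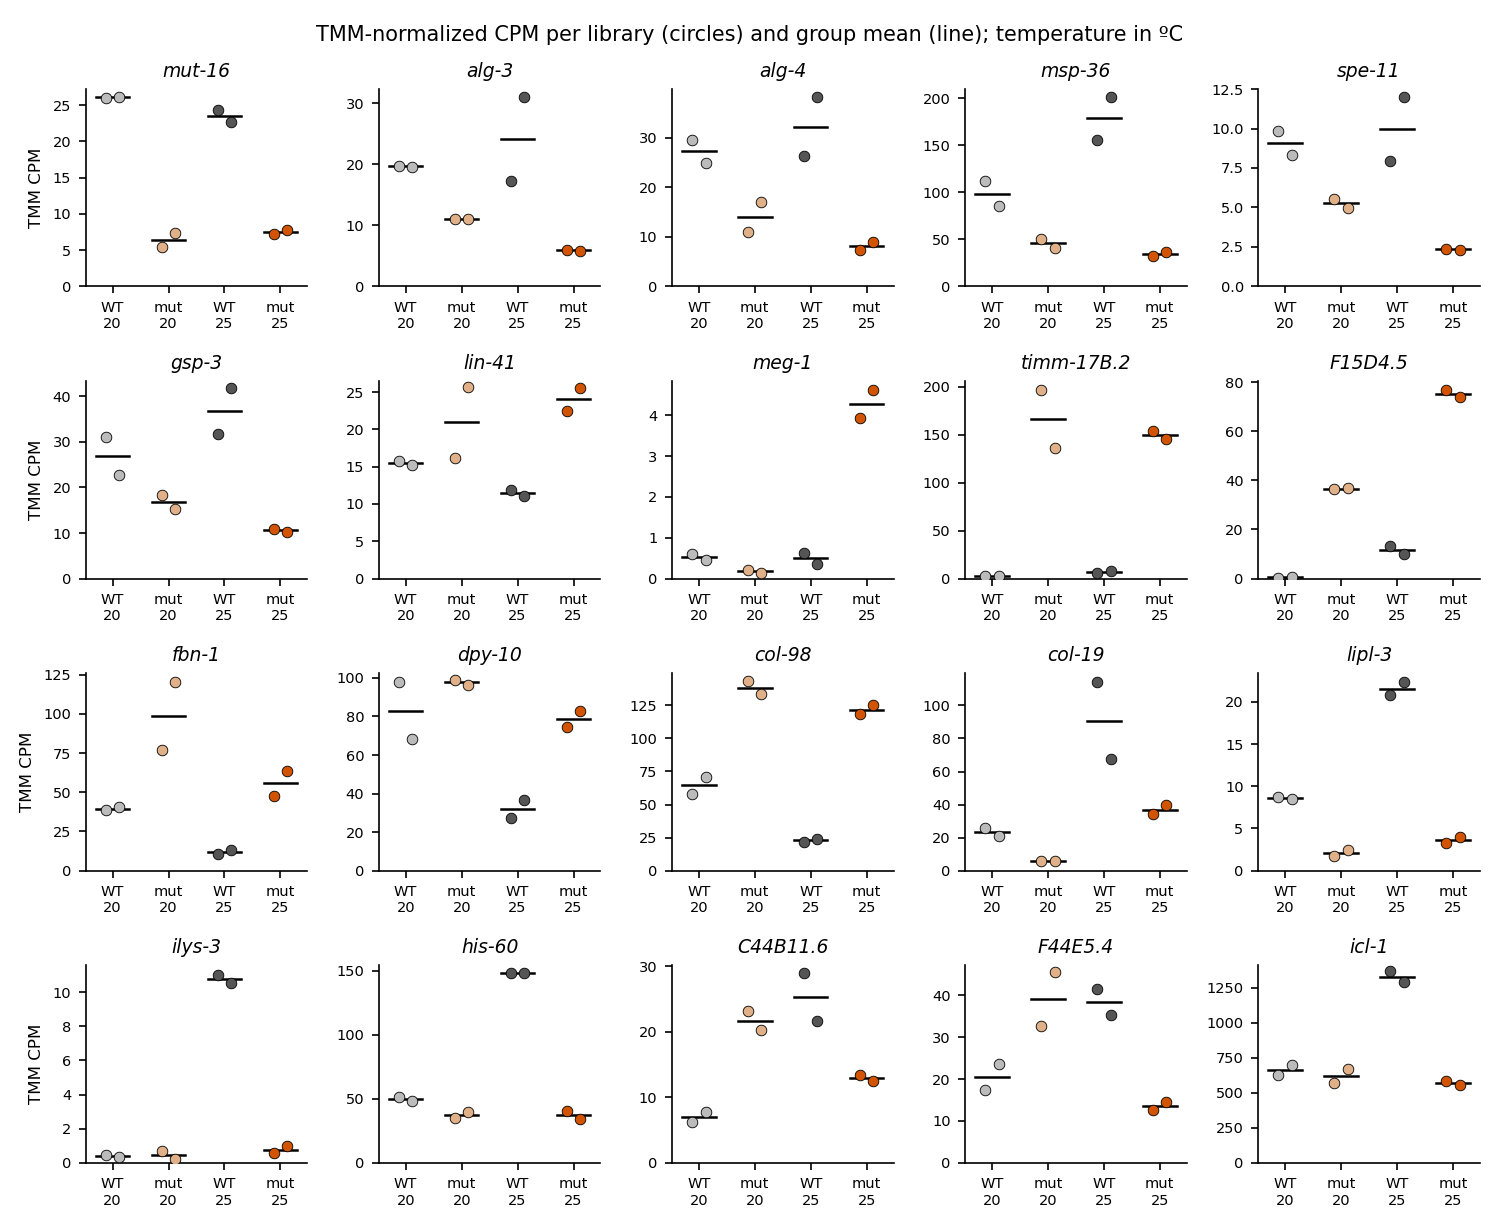
TMM-normalized CPM (y axis, starting at 0) of 20 genes in the 8 libraries, as circles, with the mean of each group of 2 libraries as a line; groups are wild-type (WT) and *mut-16* (mut) at 20ºC and 25ºC. The circles of wild-type and mutant at 25ºC are apart for all 20 genes, while for *ilys-3*, *his-60*, *icl-1* and *meg-1* a single group of libraries stands away from the others.

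Of 11 intestine markers 1 was down-regulated (9.09%, against 8.65% of all genes), and the median of the list was −0.35. It was *cpr-1*, a cathepsin B-like protease gene, which went from 663 and 530 CPM to 199 and 194 CPM (log2(fold change) −1.60, SE 0.14, adjusted p = 4.4e-06). *elt-2*, the GATA factor that defines the tissue, was not called at −0.10. *lipl-3*, a lysosomal lipase gene induced by fasting, went from 20.8 and 22.4 CPM to 3.27 and 4.02 CPM (log2(fold change) −2.56, SE 0.20, adjusted p = 2.9e-06). *ilys-3*, an invertebrate lysozyme gene, had the largest loss among genes averaging 4 CPM or more, from 11 and 10.5 CPM to 0.57 and 0.97 CPM (log2(fold change) −3.77, SE 0.36, adjusted p = 1.4e-05). Wild-type at 20ºC had 0.46 and 0.35 CPM of it, so that wild-type at 25ºC stood apart from the other groups. *icl-1*, the glyoxylate cycle enzyme gene, and *irg-5*, an infection response gene, were picked after their values were seen, as the most abundant called genes of each direction. *icl-1* went from 1370 and 1289 CPM to 583 and 556 CPM and *irg-5* from 520 and 482 CPM to 1283 and 1144 CPM.

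C-type lectin genes, which encode secreted proteins of which many respond to infection, were down-regulated in 14 of 105 cases (13.3%, against 8.65% of all genes) and up-regulated in 2. *clec-61* was at 9.65 and 8.13 CPM in wild-type and 0.57 and 0.89 CPM in the mutant, and *clec-117* at 2.76 and 4.24 CPM and then at 0.25 and 0.22 CPM (log2(fold change) −3.57 and −3.86). *clec-180* went the other way, from 62.5 and 93.1 CPM to 157 and 171 CPM. The list median was −0.19, and it lay between −0.32 and −0.20 with 1 library left out in turn. Scaled by total counts, 10 lectin genes were called down and 4 up, with a list median of −0.02.

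Histone genes were down-regulated in 14 of 50 cases (28%, against 8.65% of all genes) and up-regulated in 1 (2%, against 3.16%). With no limit on the fold change 33 were lower, against 12.5% of all genes tested. *his-60*, an H4 gene (chromosome IV, 7487681 to 7487992), was at 148 and 148 CPM in wild-type and 40.3 and 34.4 CPM in the mutant (log2(fold change) −1.99, SE 0.14, adjusted p = 1.1e-06). *his-14* went from 51.6 and 58.5 CPM to 17.8 and 15 CPM. Copies of these genes are near-identical, 44 of 50 had counts that were not whole, and most histone mRNA lacks the poly(A) tail on which the libraries were selected. Scaled by total counts, 5 histone genes were called down, and 9 were without wild-type replicate 1 or mutant replicate 2.

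Heat-inducible chaperone genes showed 1 change in each direction among 12 (8.33% each, against 3.16% up-regulated and 8.65% down-regulated over all genes). *hsp-17* rose from 34.3 and 34.8 CPM to 75.2 and 70.5 CPM (log2(fold change) 1.08, adjusted p = 0.0025). *F44E5.4*, an Hsp70 gene with a near-identical neighbour, was at 41.5 and 35.3 CPM in wild-type and 13 and 14.4 CPM in mutants under heat, and at 17.4 and 23.7 CPM and then 32.7 and 45.5 CPM at 20ºC (log2(fold change) −1.50 and 0.94, difference adjusted p = 7.4e-04). The summed list was at 361 and 357 RPM in wild-type and 359 and 369 RPM in the mutant, and the groups overlapped. With TMM-scaled totals it was at 421 and 386 in wild-type and 360 and 364 in the mutant, and the groups did not overlap.

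F-box genes, which encode substrate receptors of ubiquitin ligases, had 8 of 110 tested members up-regulated (7.27%, against 3.16% of all genes) and 6 down-regulated (5.45%, against 8.65%). MATH and BTB genes had 3 (5.66%) and 2 (3.77%) of 53. These shares depended on genes with few counts in some libraries. With at least 10 counts required in every library, 75 F-box genes were tested, of which 2 were up-regulated and 2 down-regulated. Of 40 MATH and BTB genes then tested, 1 was up-regulated and 1 down-regulated. With 1 library left out in turn, the F-box counts lay between 5 and 8 up-regulated and between 0 and 5 down-regulated, the latter lowest without mutant replicate 2. None of 33 proteasome genes, 81 ribosomal protein genes, 10 constitutive chaperone genes, 19 *pals* genes, 16 muscle genes, 16 neuron genes, 7 somatic gonad genes or 4 male neuron genes was called, with list medians from −0.26 for ribosomal proteins to 0.17 for male neuron genes. With no limit on the fold change, 2 constitutive chaperone genes and 1 neuron gene were higher at adjusted p 0.05, where 7.68% of all genes were. At the same limit 1 proteasome gene and 1 *pals* gene were lower, where 12.5% of all genes were. In the whole genome, 60 classes with at least 10 genes tested had no gene called, the largest being *rpl* with 47, *mrpl* with 40, and *rps*, *vps* and *flp* with 31 each.

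Classes that no list held also stood above the share over all genes. A class was counted when at least 5 of its genes were tested, at least 3 were called in a direction and the share was at least 3 times that over all genes, which 19 classes met downwards and 7 upwards of 353. Beside those named above, they were for down-regulation the nematode-specific peptide classes *nspa* (4 of 5), *nspc* (11 of 15) and *nsph* (4 of 7), the tau tubulin kinases *ttbk* (6 of 8), the PDZ proteins *mpz* (4 of 5), the white-type ABC transporters *wht* (5 of 8), the sideroflexins *sfxn* (4 of 7), the scramblases *scrm* (4 of 8), the sodium-coupled transporters *snf* (5 of 10), the receptor L-domain proteins *irld* (4 of 9), the tyrosine phosphatases *ptp* (3 of 7), the lipases *lipl* (3 of 7), *msrp* (3 of 6) and the neprilysins *nep* (6 of 18). For up-regulation they included the *grd* (3 of 12) and *dpy* (4 of 25) classes and the acyltransferases *oac* (3 of 28). All 15 *nspc* genes had counts that were not whole. Named classes covered little of the loss. A class symbol was carried by 370 of the 1209 down-regulated genes (30.6%) and 186 of the 441 up-regulated genes (42.2%), against 56.2% of all genes tested.

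The largest losses outside the sperm lists included genes without a class symbol. *ZK938.1* went from 20.6 and 24.5 CPM to 2.95 and 2.9 CPM (log2(fold change) −2.94, SE 0.20, adjusted p = 1.0e-06). *F52H3.6* fell by 3.05 and *R13H9.6* by 3.11, the latter from 4.03 and 13.3 CPM to 0.98 and 1.04 CPM. The value of *R13H9.6* was −1.98 without wild-type replicate 2 and −3.71 without wild-type replicate 1, and that of *F52H3.6* was −4.07 without mutant replicate 1 and −2.40 without mutant replicate 2. *pud-1.2* fell by 2.93, and its adjusted p of 0.011 became 0.098, 0.082 and 0.061 without wild-type replicate 1, mutant replicate 1 and mutant replicate 2. *Y59E9AR.1*, a single-exon gene on chromosome IV with a close copy nearby, was at 27.8 and 47.5 CPM in wild-type and at 6.87 and 0 CPM in the mutant (adjusted p = 0.04), with counts that were not whole. The call of *Y59E9AR.1* was lost without wild-type replicate 1 (adjusted p = 0.076) or 2 (0.18) or mutant replicate 2 (0.22), and in DESeq2 (0.56), so its change is uncertain. The pseudogenes *F36H12.6*, *ZK546.3* and *W08D2.9* fell by 3.02, 2.87 and 2.69, and all 3 were single-exon with divided counts. All 3 lie on chromosomes that hold major sperm protein genes, and *W08D2.9* (from 9832488) lies near *msp-10* (from 9837649) on chromosome IV. The exon of *ZK546.3* has 384 bases, as has that of *msp-31*. *R13H9.6* (from 5067320) and *Y59E9AR.1* (from 5249428) lie on chromosome IV between *msp-57* (from 5062578) and *msp-58* (from 5308593). Whether the losses of *R13H9.6*, *Y59E9AR.1* and the 3 pseudogenes are separate from those of the major sperm protein genes was not tested. *ZK546.3* overlaps *cblc-1*, and whether the authors' counting used the strand is not given in the sources used here. Pseudogenes were down-regulated in 66 of 356 cases (18.5%, against 8.65% of all genes) and up-regulated in 23 (6.46%, against 3.16%).

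The shares of lost and gained genes also varied with position and gene structure. Of the genes tested on chromosome IV, 334 of 2428 (13.8%) were down-regulated, on chromosome I 237 of 2332 (10.2%), and on the X chromosome 43 of 1833 (2.35%), where 68 (3.71%) were up-regulated. The X chromosome was the only chromosome of the nuclear genome with more genes gained than lost. Spermatogenesis genes are known to be rare on the X chromosome, and none of the 99 sperm-list genes tested lay there. Leaving those lists out could therefore not change the share on X. Without them, 294 of 2383 genes were down-regulated on chromosome IV and between 6.80% and 9.49% on the other autosomes. The lists held 81 of the 1209 down-regulated genes, and sperm genes outside them were not removed. Up-regulated genes were most frequent on chromosome V (128 of 2747, 4.66%). Among protein-coding genes, 97 of 274 with a single exon (35.4%) were down-regulated, and the share was lower with each class of exon number, 12.4% with 2 exons, 9.95% with 3 to 5, 6.99% with 6 to 10, and 3.29% with over 10. The single-exon genes include major sperm protein genes such as *msp-36*. Up-regulated shares in the same classes were 4.38%, 5.71%, 3.89%, 2.34% and 1.69%, so these too were lowest in genes with many exons.

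**Figure D4:**
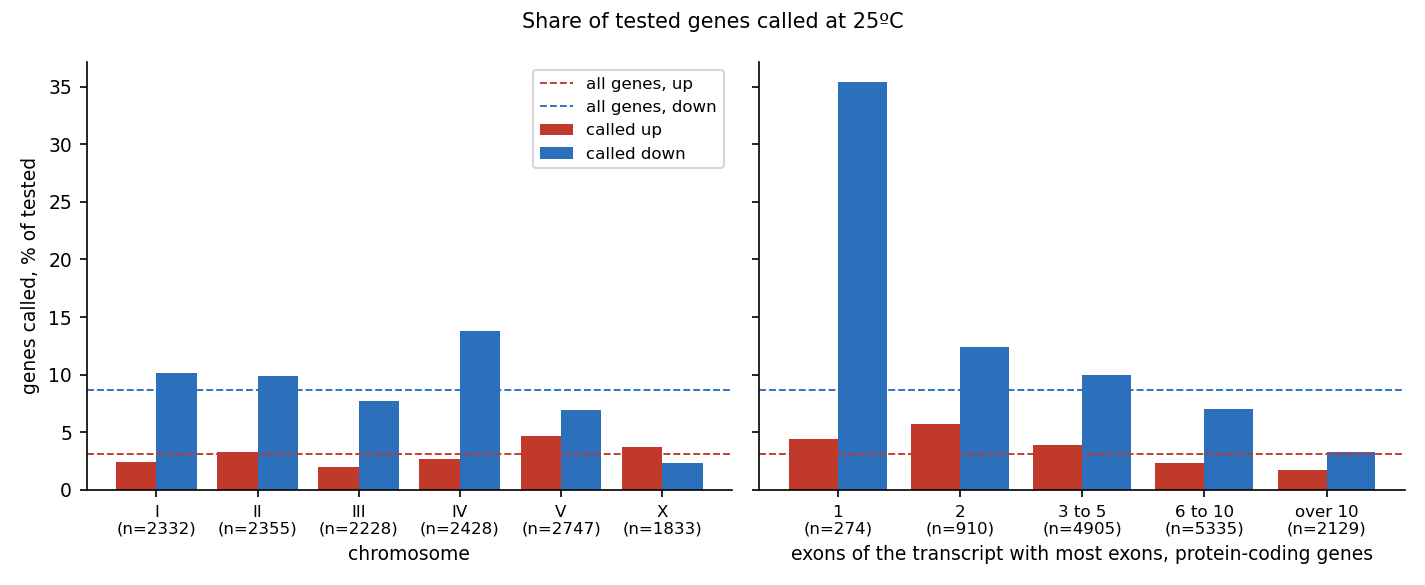
Share of tested genes up-regulated (red) and down-regulated (blue) at 25ºC (y axis, %) by chromosome (left) and by exon number of protein-coding genes (right), with the shares over all genes, 3.16% and 8.65%, as dashed lines. The down-regulated share is lowest on X, at 2.35%, and highest in single-exon genes, at 35.4%.

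The 20ºC libraries share no sample with the comparison at 25ºC. The mutation up-regulated 214 genes at 20ºC (1.53%), and 424 genes were lost there (3.03%). Of the up-regulated genes 112 were shared, 25.4% of those at 25ºC and 52.3% of those at 20ºC, and of the down-regulated genes 222 were shared, 18.4% and 52.4%. Of the 441 genes gained at 25ºC, 337 had a value above 0 at 20ºC and the 441 had a median there of 0.44 on the log2 scale, and of the 1209 lost genes 1149 had a value below 0, and the 1209 had a median of −0.79. Over all 13972 genes, 6226 lay above and 7744 below 0 at 20ºC. A test of the difference between temperatures was passed by 431 genes in all (3.08% of genes tested), among them 94 of the genes gained and 107 of the genes lost at 25ºC. Those sets were chosen by their values at 25ºC, which enter the difference, so their shares are not to be set against the 3.08%.

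The lists differed in this respect. The major sperm protein genes had a median of −2.50 at 25ºC and −1.0 at 20ºC, and 21 of 30 passed the test of the difference. Of the small sperm families 7 of 31 did, and of the *spe* and *fer* genes none of 26, with medians of −1.34 and −0.53. Histone genes had medians of −0.78 and −0.08, and 10 of 50 passed, *his-60* among them with 51.1 and 47.9 CPM in wild-type and 35.3 and 39.3 CPM in the mutant at 20ºC. Oocyte and eggshell genes had a median of 0.33 at 25ºC and −0.82 at 20ºC, and 9 of 28 passed. The 3 adult cuticle genes had medians of −1.42 and −2.06, and none passed.

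**Figure D5:**
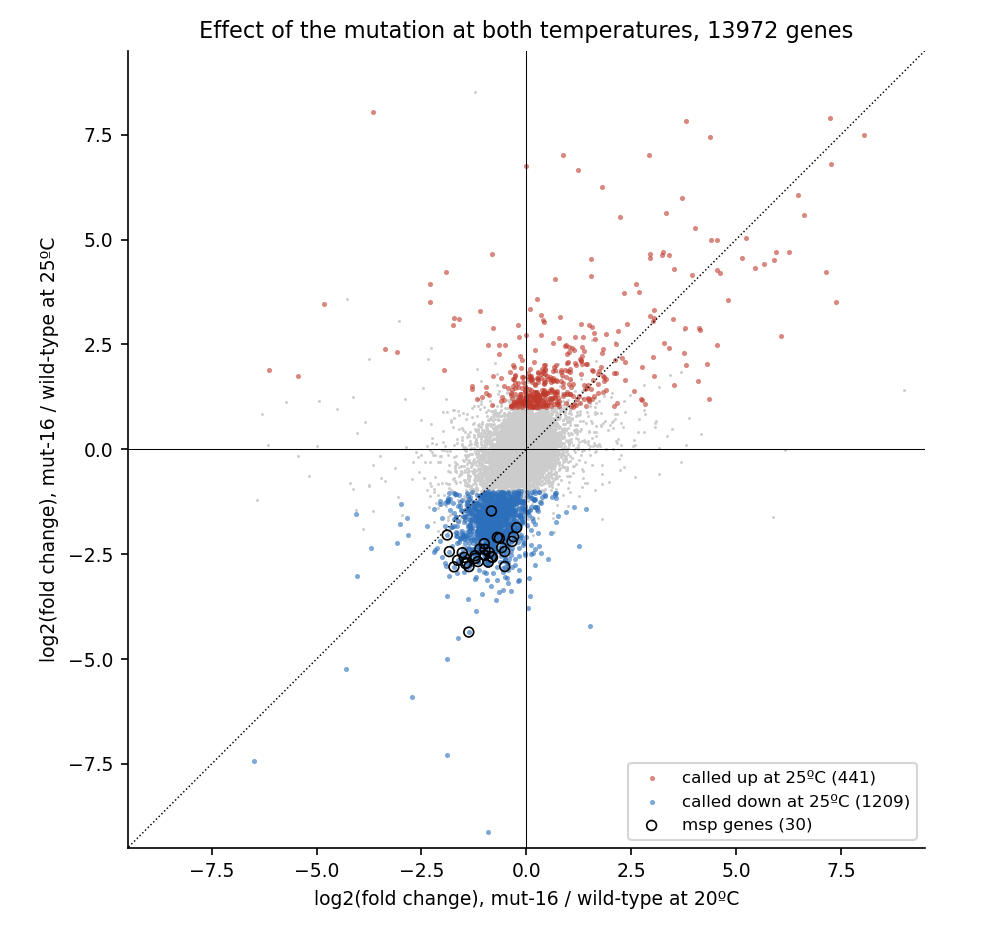
Log2(fold change) of *mut-16* over wild-type at 20ºC (x axis) and at 25ºC (y axis) for 13972 genes, with the 441 genes up-regulated at 25ºC in red, the 1209 down-regulated in blue, the 30 major sperm protein genes ringed and equal change as a dotted line. All 30 ringed genes lie below 0 on both axes, and most lie below the dotted line.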

How the data were processed

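The mRNA-seq libraries were polyadenylated, strand-specific and single-end. Per the study's methods, the authors trimmed adapters with Cutadapt, aligned reads with HISAT2 and estimated transcript abundance with Salmon, and the deposited values are expected counts per gene that need not be whole, so reads of paralogs were divided. Whether counting used strand is not given in the sources used here. Counts were rounded. Genes with at least 10 counts by edgeR's filterByExpr were kept, TMM-scaled and fitted with edgeR 4.0.16 (R 4.3.3, limma 3.58.1) over 4 groups and all 8 libraries with no block, so that the spread was shared. Genes were called at p of 0.05 or less after Benjamini-Hochberg adjustment and a log2(fold change) beyond 1, and genes named singly at the adjusted p alone. DESeq2 1.42.0 was an alternative. Of 46453 names, 46257 matched Ensembl release 115 (WBcel235). Tables and sums used Python 3.11.15, pandas 2.3.3, numpy 2.4.6 and scipy 1.17.1, and plots matplotlib 3.10.9.

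The largest 15 changes in each direction at a mean of at least 4 CPM and the strongest or most abundant members of each list were named, with some left out. Members and lists were chosen with earlier results of these data known. P-values measure the spread between cultures that the labels call biological replicates. Log2CPM of the 2 replicates had r = 0.984 in wild-type and 0.991 in the mutant at 25ºC, and counting intervals and floors cover counting error only.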

Additional observations from a re-analysis of the deposited data

Results flagged for a closer look

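For 36 of the genes named above, the effect of the mutation at 25ºC differed from that at 20ºC by a test of the difference itself in edgeR's quasi-likelihood fit (adjusted p of at most 0.05). The values that follow are log2 differences, the effect at 25ºC minus the effect at 20ºC, and a negative value means that the mutant was lower relative to wild-type at 25ºC than at 20ºC. Most of these genes were named for a large change at 25ºC, which is part of the difference tested, so their number is not to be set against the 3.08% of all genes that passed.

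Among sperm genes the differences were −2.99 for *msp-65*, −1.73 for *msp-31*, −1.43 for *msp-10*, −1.28 for *msp-59*, −1.27 for *msp-36* and −1.11 for *gsp-3*. Each of these had a smaller loss at 20ºC.

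Genes of the oocyte and germ plasm differed upwards, by 1.86 for *oma-2*, 1.49 for *egg-5*, 1.13 for *mex-5* and 4.72 for *meg-1*. *oma-2* was lower in the mutant at 20ºC, with a log2(fold change) of −0.81, and higher at 25ºC.

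Cuticle and matrix genes also differed upwards. The values were 2.60 for *grd-10*, 1.39 for *wrt-10*, 0.97 for *lpr-3*, 1.68 for *dpy-6*, 1.38 for *dpy-9*, 1.28 for *dpy-2* and 1.06 for *dpy-10*. The collagen genes *col-176*, *col-98*, *col-42* and *col-103* differed by 1.34, 1.32, 1.3 and 1.23. *F46F2.3*, which is in no list and carries no class symbol, differed by 1.37. Wild-type levels of *grd-10* were 10.6 and 15.2 CPM at 20ºC and 1.91 and 2.12 CPM at 25ºC, while the 4 mutant libraries lay between 15.9 and 18.8 CPM.

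Among genes gained at both temperatures, the gain was smaller at 25ºC for *F15D4.5* (−3.36), *timm-17B.2* (−1.41) and *rnh-1.3* (−1.21). *C44B11.6* (−2.59) and *F44E5.4* (−2.44) were lower in the mutant at 25ºC and higher at 20ºC. *fbxb-97* had a fitted difference of 11.7, which is no estimate of size because all but 1 of the groups held almost no counts.

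Losses seen at 25ºC were absent or smaller at 20ºC for *ilys-3* (−3.82), *clec-117* (−2.66), *his-60* (−1.58), *icl-1* (−1.13), *cpr-1* (−0.86) and *ZK938.1* (−1.28), and for the pseudogenes *ZK546.3* (−2.43) and *W08D2.9* (−1.54). Wild-type levels of *icl-1* were 626 and 696 CPM at 20ºC and 1370 and 1289 CPM at 25ºC.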

How the results depend on the processing

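None of the 92 genes named with a fold change and passing the test changed sign under any alternative, and 42 of them lost the call under at least 1, most often glmTreat or a library left out. Scaled by total counts, list medians rose with the median of all genes, and those of the P granule (−0.01 to 0.16), proteasome (−0.04 to 0.14), muscle (−0.07 to 0.11) and somatic gonad genes (−0.09 to 0.09) turned positive. Up-regulated genes numbered 264 and down-regulated genes 878 with at least 10 counts required in every library, which tests fewer genes. They numbered 108 and 299 when the fold change itself was tested against a log2 value of 1 (glmTreat), and 1073 and 1744 with no limit on the fold change. DESeq2 called 338 and 930. With 1 library left out in turn the counts lay between 294 and 374 and between 696 and 1144. With the replicate number as a block they were 427 and 1162. Whether the replicate numbers pair the samples is not given in the sources used here. Deviations of same-numbered libraries of the 2 genotypes correlated at −0.01 at 25ºC and at −0.16 at 20ºC. With 2 libraries a group, such values cannot decide it. Scaling by RLE, without a filter or with only the 25ºC libraries gave 442 and 1214, 585 and 1317, and 454 and 1271. The log2 ratio of summed sperm genes stayed between −2.07 and −1.69 with a library left out, and was −2.06 with TMM-scaled totals and −1.91 without the 50 most abundant genes. Of genes averaging under 1 CPM, 6.59% were up-regulated and 10.5% down-regulated, more than over all genes, and few counts stand behind each of these values.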
